A study of Rattus norvegicus with 64 samples.

Results

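The genes described here are the fibrillar collagens: Col1a1 and Col1a2 of type I collagen, Col3a1 of type III, Col5a1, Col5a2 and Col5a3 of type V, Col11a1 of type XI and Col2a1 of type II. Probes were taken by matching the RefSeq accession that the array gives for each probe to these rat gene symbols. Probes were found for 7 genes, out of 15715 named genes on the array, and they comprised 10 of the 30367 gene probes. Col5a2 had no matching probe and was not analysed here.

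Fibrillar collagens are the rope-like proteins of connective tissue. Cells, mainly fibroblasts and smooth muscle cells, make them as procollagens, whose chains wind into a triple helix, leave the cell, lose their end peptides and line up into cross-linked fibrils. In the bladder wall type I and type III collagen form the bulk of these fibrils, type V and type XI chains act inside them to start fibrils and set their width, and type II belongs to cartilage. Granulation tissue of a healing wound is known for abundant collagen synthesis.

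RNA came from reconstructed bladder walls of male Wistar rats after hemicystectomy, the removal of part of the bladder. The gap was closed with bladder acellular matrix (BAM), a bladder wall from which the cells had been removed, used alone or seeded with adipose-derived stromal cells (ASCs). ASCs came from retroperitoneal fat of male Wistar rats that were 10 weeks old, syngeneic with the recipients, and were used at an early passage. Both kinds of graft were studied at 7, 30, 90 and 180 days, which gave 8 groups with 8 arrays each and 64 arrays in all, each from 1 bladder. A graft holds a scaffold that is itself collagen, and its RNA comes from host cells that grew in and, where seeded, from any ASCs that remained.

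Signals are given as levels: the log2 of the processed signal of a probe minus the 75th percentile of its array, averaged over the spots of the probe. A level of 0 is thus the brightness of the 75th percentile, and levels of different probes are not comparable. Probes were called differentially expressed at a Benjamini-Hochberg adjusted p below 0.01 over all gene probes (limma) and a fold change above 1.5. Each group lay on its own slide, which leaves slide confounded with group (they cannot be told apart), and arrays of 7 and 30 days shared 1 scan day while arrays of 90 and 180 days shared a later one. The share of probes well above background ranged from 69.2% to 95.5% on arrays of 7 and 30 days and from 32.5% to 59.7% on later arrays. In tissue RNA of this kind, fewer cells of a type and less RNA per cell cannot be told apart.

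The most abundant fibrillar collagens were too bright for this scan. The brighter Col1a1 probe (probe 1) had a saturated spot on 52 of 64 arrays, Col1a2 on 63 and Col3a1 on 42. At 7 and 30 days all 3 were saturated on every array of both grafts. A saturated spot sits at the ceiling of the scanner, so that its level only says how far the 75th percentile of that array was below the ceiling. Col1a1 had a dimmer probe (probe 2), saturated on 1 array of BAM at 7 days and 1 array of BAM at 90 days. Probe 2 minus the saturated Col1a2 on the same array averaged -0.25 at 7 days and -0.48 at 90 days in BAM. With ASCs it averaged -0.85 and -2.03. Probe 2 was thus near the ceiling in BAM at 7 and 90 days, and differences that use these groups are not free of the ceiling. Col5a1, Col5a3, Col11a1 and Col2a1 had no saturated spot. Results below therefore rest on Col1a1 probe 2, Col5a1, Col5a3, Col11a1 and Col2a1, a choice made after saturation was seen.

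**Figure D1:**
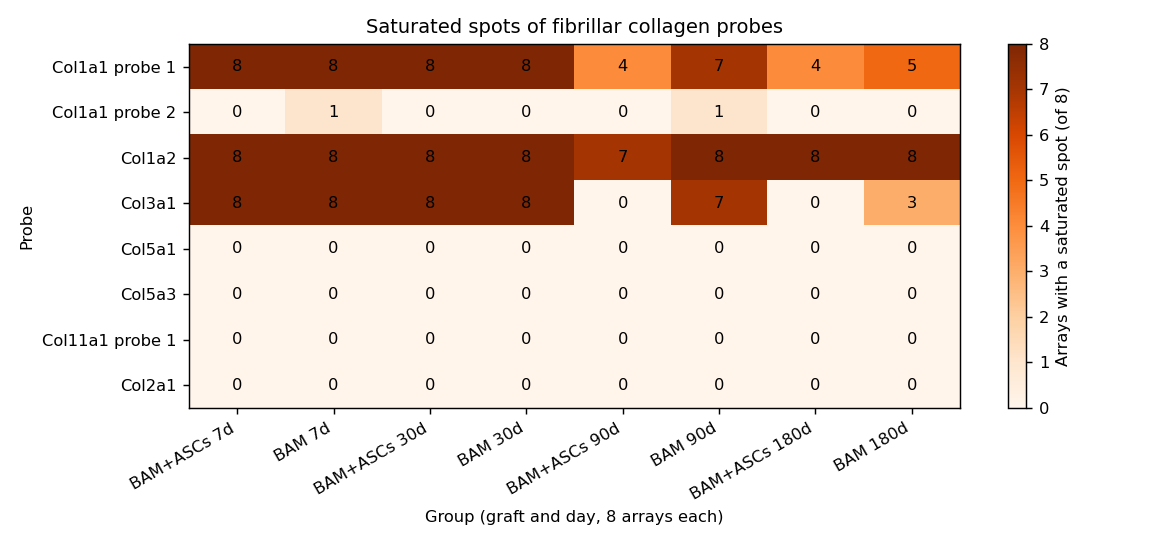
Number of arrays, out of 8, with a saturated spot for each fibrillar collagen probe (vertical axis) in each group (horizontal axis), with darker cells for more arrays. Col1a1 probe 1, Col1a2 and Col3a1 were saturated on all 8 arrays of every group at 7 and 30 days, while Col1a1 probe 2 was saturated on 2 arrays in all and Col5a1, Col5a3, Col11a1 and Col2a1 on none.

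Mean levels of Col1a1 probe 2, Col5a1, Col5a3 and Col11a1 were highest at 7 days in both kinds of graft. In bladders reconstructed using BAM only, Col1a1 probe 2, Col5a1, Col5a3 and Col11a1 all fell between 7 and 30 days, which made 4 of the 5 measured genes. In seeded grafts, Col5a1 alone passed the thresholds over the same interval, which made 1 of 5. Of all gene probes, 4.21% fell in BAM and 1.4% in BAM seeded with ASCs. The median log2 fold change of the 5 genes was -1.04 in BAM, against -0.06 over all probes, and -0.39 in BAM seeded with ASCs, against 0.27. Whether the fall differed between grafts was tested for each gene, and no test passed (below).

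**Figure D2:**
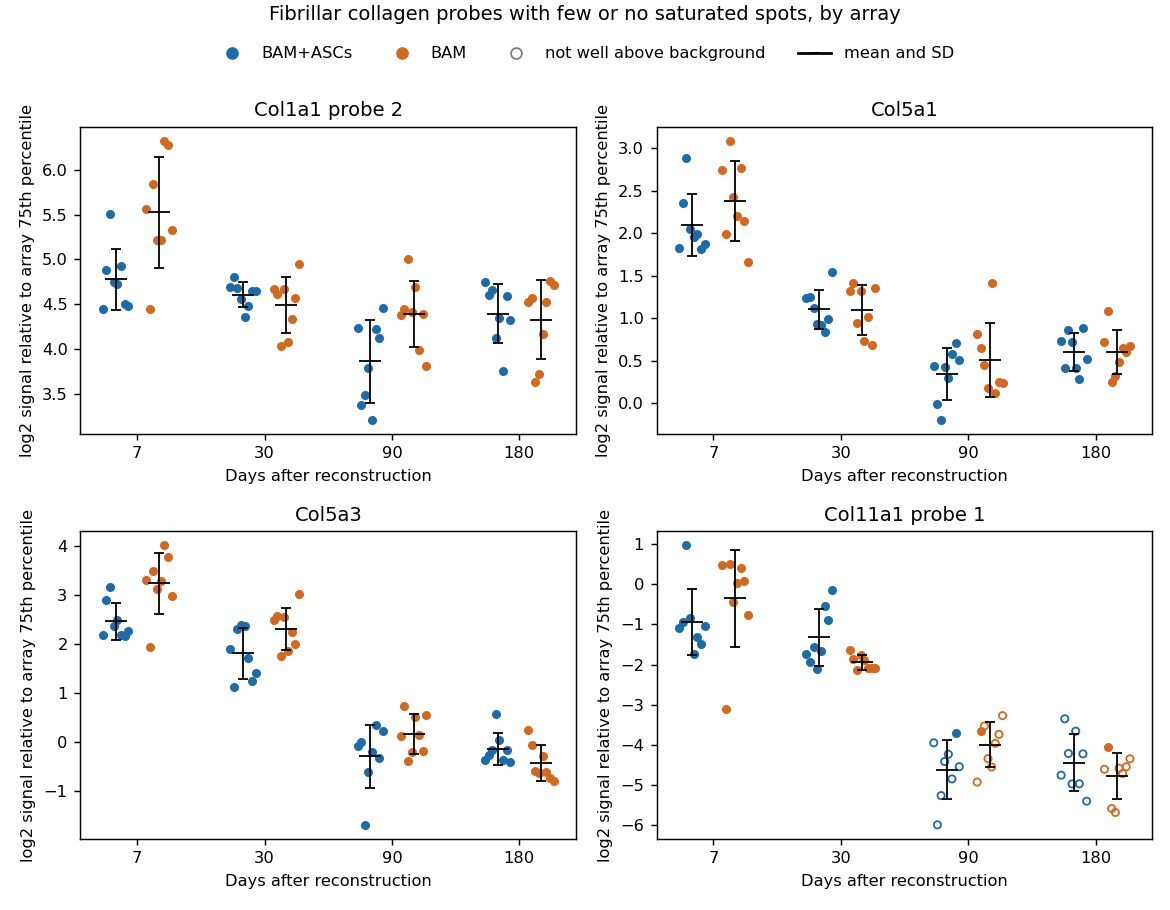
Levels of Col1a1 probe 2, Col5a1, Col5a3 and Col11a1 probe 1 (log2 signal relative to the 75th percentile of the array, vertical axes) on each of the 64 arrays by days after reconstruction, with BAM+ASCs in blue, BAM in orange, and black bars for mean and SD of 8 arrays. Col5a3 dropped from group means of 2.46 and 3.23 at 7 days to -0.15 and -0.44 at 180 days, and Col11a1 was mostly not well above background (open circles) at 90 and 180 days.

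Col1a1 encodes the main chain of type I collagen, which pairs with the Col1a2 chain. At 7 days the level of Col1a1 probe 2 had a lowest, median and highest value of 4.45, 4.74 and 5.50 in BAM seeded with ASCs and of 4.45, 5.44 and 6.33 in BAM. The unseeded grafts thus reached higher, but the groups overlapped, and the highest BAM array was the saturated one, so its value is a lower limit. Mean levels were 4.78 ± 0.34 with ASCs and 5.53 ± 0.62 without (SD, n = 8). The mean without ASCs was near the ceiling (above), which limits the reading of the fold change. Col1a1 was 1.68-fold lower in seeded grafts, with a log2 fold change of -0.75 (SE 0.20, adjusted p = 0.00493), and -0.58 once the median over all probes (-0.16) was taken off. It was the 1 gene called among the 5 in this comparison, where 5.62% of all probes were lower and 7.73% were called in either direction. The call was lost, with an adjusted p from 0.0121 to 0.0238, when any of 6 arrays was left out (replicates 1, 7 and 8 with ASCs and replicates 3, 6 and 7 of BAM), and under 4 other settings. These were quantile normalization (-0.42, adjusted p = 0.137), the percentile over detected probes (-0.64, adjusted p = 0.0141), saturated spots left out (-0.63, adjusted p = 0.0188) and a separate fit of the 2 groups (-0.75, adjusted p = 0.0401).

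At 30 days no difference between grafts was called for Col1a1. Levels of Col1a1 probe 2 ranged from 4.36 to 4.80 (median 4.64) with ASCs and from 4.04 to 4.95 (median 4.59) without, a log2 difference of 0.12 with a 95% interval from -0.27 to 0.51. The 30-day means were 4.61 ± 0.14 and 4.49 ± 0.32 (SD, n = 8). In BAM, Col1a1 fell by 1.04 on the log2 scale from 7 to 30 days (SE 0.20, adjusted p = 6.86e-05), a 2.05-fold fall. In BAM seeded with ASCs the same change was -0.17 (adjusted p = 0.529). The change of the graft difference between 7 and 30 days was 0.87 (SE 0.28, adjusted p = 0.0513), which did not pass the threshold, while 0.985% of all probes did. Over all 4 days the graft difference of Col1a1 probe 2 had an adjusted p of 0.0206, while 18.5% of all probes had an adjusted p below 0.01 in that test.

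Between 30 and 90 days Col1a1 probe 2 fell by 0.75 in BAM seeded with ASCs (SE 0.20, adjusted p = 0.00157) and changed by -0.10 in BAM (adjusted p = 0.684). In BAM at 90 days the probe was near the ceiling (above), so the change in BAM and the graft difference at 90 days are not free of it. The difference between these changes was -0.65 (SE 0.28, adjusted p = 0.0673) and did not pass, while 9.99% of all probes did. At 90 days levels ran from 3.21 to 4.46 (median 3.95) with ASCs and from 3.82 to 5.00 (median 4.40) without. Most seeded grafts lay below most unseeded ones, with overlap, and the log2 fold change was -0.53 (SE 0.20, adjusted p = 0.0344), or -0.26 after the median over all probes was taken off. At 180 days the means were 4.39 ± 0.33 and 4.33 ± 0.44 (SD, n = 8), a difference of 0.06 with an interval from -0.32 to 0.45.

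Nothing can be ordered for Col1a2, the partner chain of Col1a1, and little for Col3a1, the chain of type III collagen. Taken at face value, the brightest probes gave 2 calls at 90 days, Col1a1 probe 1 at 0.75 and Col1a2 at 1.02, higher with ASCs, where 3.88% of all probes were higher and 12.5% were called in either direction. Over time the brightest probes of the 7 genes gave 3, 6 and 2 calls in BAM from 7 to 30, 30 to 90 and 90 to 180 days, against 8.65%, 44.7% and 9.39% of all probes. With ASCs they gave 1, 3 and 0 calls, against 8.06%, 28.1% and 4.14%. BAM at 90 days had a saturated spot of Col1a1 probe 1 on 7 arrays, with 14 of 16 spots saturated, and of Col1a2 on 8 arrays with 16 of 16. The median 75th percentile of the arrays (log2) was 11.4 in that group and from 10.2 to 10.5 in the others, which puts a ceiling spot lower on the scale. The dimmer Col1a1 probe had the opposite sign at 90 days. Col3a1 was saturated on no array of BAM seeded with ASCs at 90 and 180 days, where its levels ranged from 4.91 to 5.62 and from 4.83 to 5.59. Against the saturated groups of 7 and 30 days with ASCs, Col3a1 was at least 1.29-fold and 1.19-fold lower at 90 days and at least 1.34-fold and 1.23-fold lower at 180 days. These bounds use the mean of each saturated group at its measured value and take no account of the spread between arrays. Levels with ASCs ranged from 5.37 to 5.87 at 7 days and from 5.41 to 5.70 at 30 days, which overlaps the later ranges. The change from 30 to 90 days with ASCs was not called. All these comparisons also span the change of scan day.

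Col5a1 encodes the chain present in nearly all type V collagen molecules, and Col5a3 a less common chain that replaces another in some of them. Promoter sequences of Col5a1, Col5a3 and Col11a1 are shown because these 3 genes fell together between 7 and 90 days and had reference sequence. Each window runs from 250 bases before to 50 bases after the start of the gene in RefSeq (build GRCr8), at chr3:31606630-31606929 on the + strand for Col5a1, chr8:27625899-27626198 on the - strand for Col5a3 and chr2:204508886-204509185 on the + strand for Col11a1. Capitals mark matches to the letters of the CCAAT box (CCAAT, or ATTGG read on the other strand), the GC box (GGGCGG, or CCGCCC read on the other strand) and the TATA box (TATAAA, or TTTATA read on the other strand).
Col5a1: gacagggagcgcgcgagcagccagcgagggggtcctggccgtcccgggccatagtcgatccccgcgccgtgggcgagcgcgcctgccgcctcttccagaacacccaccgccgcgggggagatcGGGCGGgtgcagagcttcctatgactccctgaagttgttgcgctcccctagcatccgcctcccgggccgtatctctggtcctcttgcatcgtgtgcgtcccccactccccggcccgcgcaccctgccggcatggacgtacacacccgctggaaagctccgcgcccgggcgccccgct
Col5a3: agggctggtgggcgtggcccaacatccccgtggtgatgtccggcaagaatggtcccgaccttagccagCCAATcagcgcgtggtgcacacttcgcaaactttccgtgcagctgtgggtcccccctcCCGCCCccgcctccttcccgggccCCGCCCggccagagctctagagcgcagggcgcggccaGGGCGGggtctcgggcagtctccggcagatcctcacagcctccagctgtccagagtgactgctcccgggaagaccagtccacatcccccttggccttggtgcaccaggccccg
Col11a1: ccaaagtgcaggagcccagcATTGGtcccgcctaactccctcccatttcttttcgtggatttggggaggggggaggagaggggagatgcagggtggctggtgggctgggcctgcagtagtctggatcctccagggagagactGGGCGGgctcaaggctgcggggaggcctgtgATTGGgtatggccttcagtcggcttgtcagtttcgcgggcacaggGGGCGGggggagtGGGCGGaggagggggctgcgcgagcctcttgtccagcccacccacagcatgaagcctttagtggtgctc

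These 3 windows had 72%, 69% and 64.7% G and C for Col5a1, Col5a3 and Col11a1, against a median of 51.7% over all 33469 promoters of the table. GGGCGG occurred 1 time in Col5a1, 3 times in Col5a3 and 3 times in Col11a1, and 33.1% of all promoters held it. CCAAT occurred 1 time in Col5a3 and 2 times in Col11a1 and not in the Col5a1 window, and 37.5% of all promoters held it. TATAAA was in none of the 3 windows and in 14.2% of all promoters, while the Col1a2 window held 1. Matches are a description of these letters only. Promoter sequences were matched for 5 of the 8 genes.

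Col5a1 fell from 7 to 30 days in both grafts. At 7 days its levels had a lowest, median and highest value of 1.82, 1.97 and 2.88 with ASCs and of 1.67, 2.32 and 3.09 without. At 30 days they were 0.83, 1.06 and 1.54 with ASCs and 0.69, 1.17 and 1.41 without, so that no array of 30 days reached the range of 7 days within either graft. Mean levels went from 2.09 ± 0.36 to 1.10 ± 0.23 with ASCs and from 2.38 ± 0.47 to 1.10 ± 0.29 without (SD, n = 8). The log2 fold change from 7 to 30 days was -0.99 with ASCs (SE 0.17, adjusted p = 1.08e-05) and -1.28 without (SE 0.17, adjusted p = 3.16e-08), and these changes differed by 0.29 (SE 0.24, adjusted p = 0.432). A further fall from 30 to 90 days was -0.76 with ASCs (adjusted p = 0.000155) and -0.59 without (adjusted p = 0.0019), where 10.3% and 9.49% of all probes fell. The latter lay at the edge of the fold threshold, and leaving out any of 9 arrays (replicates 1, 2, 4 and 8 of BAM at 30 days and 3, 4, 6, 7 and 8 at 90 days) put it below, at -0.53 to -0.58. Of 6 housekeeping genes (Actb, Gapdh, Hprt1, Tbp, Sdha and Ppia), 3 also fell in BAM from 30 to 90 days (median -0.52) and 0 with ASCs (median 0.04). Actb, which changed most in BAM, was saturated on 63 arrays. All levels of BAM at 90 days share the scaling of that group, whose 75th percentile was the highest (median 11.4). Under 11 alternative settings, other scalings among them, the fall of Col5a1 in BAM from 30 to 90 days ranged from -0.61 to -0.56. The call was kept under 9 of the 11 (adjusted p from 0.00101 to 0.0122 over all 11). The part of scaling in the fall in BAM was not tested beyond these settings. No difference between grafts was called for Col5a1 at any day, with log2 differences of -0.29, 0.01, -0.17 and 0.01 at 7, 30, 90 and 180 days and 95% intervals from -0.61 to 0.04, from -0.32 to 0.33, from -0.50 to 0.16 and from -0.32 to 0.33.

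Col5a3 fell in both grafts from 30 to 90 days. Its levels at 7 days were 2.16, 2.31 and 3.17 (lowest, median, highest) with ASCs and 1.93, 3.29 and 4.01 without. At 30 days they were 1.11, 1.80 and 2.39 with ASCs and 1.75, 2.36 and 3.02 without. By 90 days they had dropped to -1.70, -0.15 and 0.34 with ASCs and -0.39, 0.14 and 0.74 without, below every array of 30 days. The fall from 30 to 90 days was 4.29-fold with ASCs (log2 -2.10, SE 0.24, adjusted p = 1.47e-10) and 4.43-fold without (log2 -2.15, SE 0.24, adjusted p = 2e-11). The earlier change, from 7 to 30 days, was -0.93 without ASCs (SE 0.24, adjusted p = 0.00251) and -0.66 with ASCs (adjusted p = 0.0323, not called). These 2 changes differed by 0.27 (adjusted p = 0.620), which did not pass. The call without ASCs was lost in a separate fit of the 2 groups (adjusted p = 0.0152) and without replicate 6 of BAM at 7 days (-0.82, adjusted p = 0.0101). Over the interval from 30 to 90 days leukocyte markers fell and smooth muscle markers rose in both grafts, as given with the other cell types. The interval from 30 to 90 days also spans the change of scan day, which cannot be told apart from time.

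At 7 days Col5a3 differed between grafts without passing the threshold. Mean levels were 2.46 ± 0.37 with ASCs and 3.23 ± 0.63 without (SD, n = 8), a log2 fold change of -0.78 (SE 0.24, adjusted p = 0.0147), or -0.61 after the median over all probes was taken off. Replicate 2 of BAM, the lowest of its group at 1.93, lay below the lowest seeded graft. Without it the fold change was -0.96 (adjusted p = 0.00148), and without replicate 3 with ASCs, the highest of its group, it was -0.88 (adjusted p = 0.0065), both past the thresholds. At 30 and 90 days the differences were -0.50 (adjusted p = 0.165) and -0.46 (adjusted p = 0.115), and at 180 days 0.29 (adjusted p = 0.735). The graft difference over the 4 days had an adjusted p of 0.0435 for Col5a3 and 0.591 for Col5a1.

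**Figure D3:**
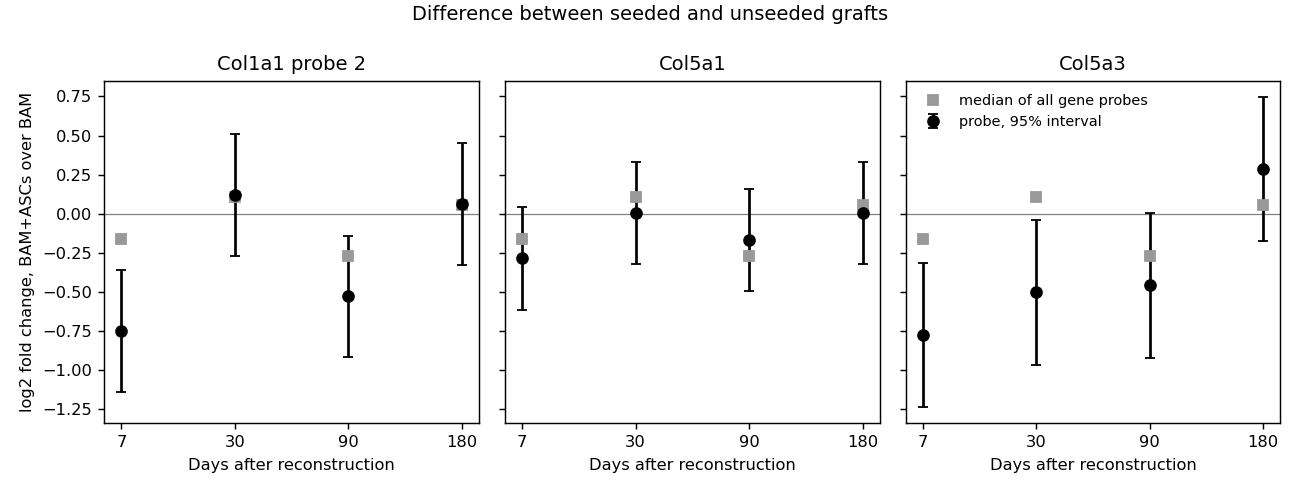
Log2 fold change of BAM+ASCs over BAM (vertical axes) at 7, 30, 90 and 180 days for Col1a1 probe 2, Col5a1 and Col5a3, with bars for the 95% interval and gray squares for the median of all gene probes. At 7 days the values were -0.75, -0.29 and -0.78, and Col1a1 probe 2 passed both thresholds.

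Col11a1 encodes a chain of type XI collagen, a minor collagen of cartilage fibrils that fibroblasts also make in some healing and fibrotic tissues. Its probe 1 had levels at 7 days of -1.75, -1.07 and 0.96 (lowest, median, highest) with ASCs and of -3.10, 0.06 and 0.50 without. At 30 days they were -2.12, -1.61 and -0.14 with ASCs and -2.13, -1.99 and -1.64 without. The unseeded grafts had the higher median at 7 days and the narrower range at 30 days, and the groups overlapped at both. The log2 graft differences of -0.58 (adjusted p = 0.295) and 0.62 (adjusted p = 0.277) did not pass. Without replicate 2 of BAM, the lowest array at 7 days, the difference at 7 days was -0.98 (adjusted p = 0.0252), which did not pass either. In BAM Col11a1 fell 3.00-fold between 7 and 30 days (log2 -1.59, SE 0.36, adjusted p = 0.000779). In BAM seeded with ASCs the change was -0.39 (adjusted p = 0.42), and the change of the graft difference was 1.20 (SE 0.51, adjusted p = 0.126). Probe 2 gave -2.20 in BAM and -1.07 (adjusted p = 0.0355) in BAM seeded with ASCs, and probe 3, the dimmest, gave -1.69 and -0.0019 (adjusted p = 0.997).

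At 90 and 180 days Col11a1 was close to background. Probe 1 was well above background on 1 of 8 arrays of both grafts at 90 days, on 0 with ASCs at 180 days and on 1 of BAM at 180 days, and probe 2 on none of these 32 arrays. From 7 to 90 days probe 2 was 18.6-fold lower with ASCs and 17.1-fold lower without. From 30 to 90 days probe 2 was 8.87-fold lower with ASCs and 3.73-fold lower without. The limma test of its measured levels over that interval gave an adjusted p of 2.35e-09 with ASCs and 1.94e-05 without. Probe 3 gave smaller folds, 4.64-fold with ASCs and 3.78-fold without from 7 to 90 days. From 30 to 90 days it was 4.64-fold lower with ASCs, and in BAM its change of -0.65 (adjusted p = 0.124) was not called. These folds set the mean of the brighter group against, on each array of the other group, the higher of the level of the probe and the dimmest level well above background. For probe 2 with ASCs that dimmest level never exceeded the level of the probe, so its folds are the measured differences. None of these folds is a lower limit, since signal so close to background does not fix a level.

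Col2a1, the chain of cartilage type II collagen, was faint throughout. Group means of its level lay between -4.71 and -4.03, no comparison called it, and it was well above background on 42 of 64 arrays. Replicate 8 of BAM at 90 days stood apart at -0.62, where the other 7 arrays of its group ranged from -5.29 to -4.47. Col11a2, which also belongs to cartilage fibrils, had its highest level of that group, 1.23, and the 7 chondrocyte markers on the array (Acan, Comp, Matn1, Hapln1, Cnmd, Col9a1 and Sox9) had their highest mean level there, -2.77 against a group median of -4.20. What this array owes to other tissue was not tested.

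The chains were also compared within each array, where scaling between arrays cancels. Of 7 pairs fixed for this test, 5 had probes for both genes, which gave 20 tests over 4 days (two-sided exact permutation over 8 against 8 arrays, adjusted over the 20). None had an adjusted p below 0.05, and 4 had an unadjusted p below 0.05. Pairs with Col1a1 probe 1, Col1a2 or Col3a1 held saturated values, and Col11a1 was near background at 90 and 180 days. Most of the 20 tests, which the adjustment counts, could therefore not order the chains. Among the 4, Col1a1 probe 1 minus Col1a2 at 7 days and Col5a1 minus Col1a1 probe 1 at 90 days were such saturated pairs. Col11a1 probe 1 minus Col5a1 at 30 days, also among the 4, had no saturated spot. It was -2.43 ± 0.69 with ASCs and -3.04 ± 0.26 without (SD, n = 8), a difference of 0.61 (exact p = 0.0354, adjusted p = 0.177). Col5a3 minus Col5a1 at 7 days was 0.37 ± 0.12 with ASCs and 0.86 ± 0.56 without (SD, n = 8), a difference of -0.49 (exact p = 0.0337, adjusted p = 0.177). Without replicate 2 of BAM the difference was -0.62 (adjusted exact p = 0.0186). At 30 days the pair differed by -0.51 (exact p = 0.0632, adjusted p = 0.211) and at 180 days by 0.28 (exact p = 0.121, adjusted p = 0.303). The mean of the pair was 0.70 with ASCs and 1.21 without at 30 days and -0.75 and -1.03 at 180 days, and its zero has no meaning, since it sets 2 probes side by side. With the dimmer Col1a1 probe, Col5a1 minus Col1a1 at 7 days was -2.68 ± 0.12 with ASCs and -3.15 ± 0.57 without (SD, n = 8), a difference of 0.46 (exact p = 0.0385, adjusted p = 0.11). In that family 4 tests passed, all of Col1a1 probe 2 against the saturated Col1a2 or Col3a1 at 7 and 90 days, and they carry no order of the chains.

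**Figure D4:**
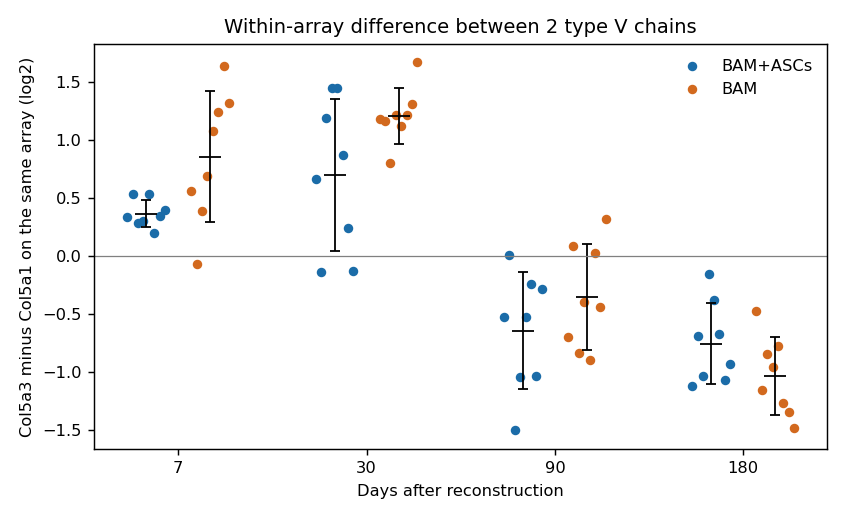
Col5a3 minus Col5a1 on the same array (log2, vertical axis) for each of the 64 arrays by days after reconstruction, BAM+ASCs in blue and BAM in orange, with black bars for mean and SD. At 7 days the 8 seeded grafts lay between 0.20 and 0.53, and the 8 unseeded ones between -0.07 and 1.64.

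Among grafts of a group, levels of the collagens were correlated. After each group's mean was subtracted, 6 relations among Col1a1 probe 2, Col5a1, Col5a3 and Col11a1 probe 1 were computed over the 32 arrays of 7 and 30 days, with values permuted within groups. Col1a1 and Col5a3 had a Pearson r of 0.72 (permutation p = 2e-05, adjusted p = 0.00012) and a Spearman rho of 0.57 (permutation p = 0.00081, adjusted p = 0.00243). Without the 2 arrays farthest in Col1a1, replicates 2 and 6 of BAM at 7 days, r was 0.56. Col1a1 and Col5a1 had r = 0.61 (permutation p = 0.00269, adjusted p = 0.00404) and rho = 0.66 (permutation p = 0.00039, adjusted p = 0.00234), and r = 0.58 without the same 2 arrays. The other 4 relations had r from 0.48 to 0.64 with adjusted permutation p-values from 0.00404 to 0.0231, and rho from 0.28 to 0.51 with adjusted permutation p-values from 0.00658 to 0.141. Col5a3 and Col11a1 rested on the 2 farthest arrays, as r went from 0.48 to 0.18 without them. All probes of an array share its scaling, and no pairs of other genes were tested beside these 6. Whether the collagens were more alike than other genes was thus not tested. Col1a1 probe 2 was also near the ceiling in BAM at 7 days (above).

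Within single groups, each of which is 1 slide with 8 arrays, these relations differed in sign. Col1a1 and Col5a3 had r = 0.84 with ASCs and 0.95 without at 7 days, and r = -0.55 with ASCs and 0.91 without at 30 days. Col5a3 also ran against Col5a1 (r = -0.43) and Col11a1 (r = -0.45) in seeded grafts at 30 days. Whether that group differed from the others was not tested.

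The grafts differed in other cell types too. At 7 days 4 of the 6 urothelial markers (Upk1a, Upk1b, Upk2, Upk3a, Krt5 and Krt20) were higher with ASCs (2.11% of all probes were), with a median log2 fold change of 2.04, and their mean level per array ranged from 0.71 to 2.86 with ASCs and from -2.60 to 2.18 without. Of 5 smooth muscle markers (Myh11, Des, Smtn, Actg2 and Cnn1) none was called at 7 days, and their mean level ranged from 2.05 to 3.48 with ASCs and from 0.80 to 4.01 without. Replicate 2 of BAM at 7 days, the lowest in Col1a1, Col5a3 and Col11a1, had the highest smooth muscle and the lowest leukocyte mean of its group (4.01 and 0.42). Of the 4 fibroblast markers on the array (Pdgfra, Dcn, Lum and Thy1), none was called between grafts at 7 days, with a median of -0.20 and mean levels from 1.45 to 2.00 with ASCs and from 1.48 to 2.12 without. Of 4 myofibroblast markers (Acta2, Tagln, Postn and Fap) none was called between grafts at 7 days, with a median of -0.56 and mean levels from 0.99 to 1.67 with ASCs and from 1.29 to 2.16 without. Of 3 endothelial markers (Pecam1, Cdh5 and Kdr) Kdr was lower with ASCs at 7 days (-0.68, SE 0.17, adjusted p = 0.00311), where 5.62% of all probes were lower. The median of the 3 was -0.68, and their mean level ranged from 0.80 to 1.34 with ASCs and from 1.19 to 2.26 without. From 7 to 30 days all 3 endothelial markers fell in BAM (median -1.03), and Kdr fell with ASCs (median of the 3 -0.31). Of all probes, 4.21% fell over that interval in BAM and 1.4% with ASCs. From 7 to 30 days in BAM, 3 of the 4 fibroblast markers fell (median -0.78) and 4 of the 6 urothelial markers rose (median 1.92), where 4.21% of all probes fell and 4.44% rose. From 30 to 90 days 3 of the 4 leukocyte markers (Ptprc, Cd68, Itgam and Cd3e) fell in BAM (median -2.09) and 3 fell with ASCs (median -1.995), where 9.49% and 10.3% of all probes fell. The range of the leukocyte mean level went from 1.44 to 2.05 at 30 days to -2.99 to 1.02 at 90 days in BAM and from -0.09 to 1.44 to -4.09 to 0.17 with ASCs. Smooth muscle markers rose over the same interval, 3 of 5 in BAM (median 0.98) and 4 of 5 with ASCs (median 1.35), where 35.2% and 17.8% of all probes rose. At 90 days 2 smooth muscle, 1 fibroblast, 1 myofibroblast and 2 of the 6 housekeeping genes were higher with ASCs. Of all probes, 3.88% were higher. Then 1 endothelial and 1 of the 7 chondrocyte markers were lower, where 12.5% of all probes were called in either direction. From 30 to 90 days all 4 osteoblast and all 4 skeletal muscle markers rose in BAM, and 0 and 1 with ASCs. These rises stand beside 35.2% and 17.8% of all probes. The part of these cell types in the collagen results was not tested.

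Enzymes and chaperones that shape procollagen inside the cell fell with the collagens in BAM. Of 22 such genes on the array (26 were listed), 11 fell and 0 rose between 7 and 30 days in BAM, with a median log2 fold change of -0.58, against 4.21% of all probes falling. In BAM seeded with ASCs 4 fell and 0 rose (median -0.43), against 1.4%. P3h1, a prolyl 3-hydroxylase, changed by -1.28 in BAM (adjusted p = 7.99e-12) and -0.72 with ASCs, and Fkbp10, a prolyl isomerase of the endoplasmic reticulum, by -1.24 and -1.04. At 7 days 4 were lower with ASCs than without and 0 higher (median -0.23), where 5.62% of all probes were lower. These were Creb3l1 at -1.04 (SE 0.16), a transcription factor that drives collagen secretion genes, Serpinh1 at -0.82 (SE 0.17), the collagen chaperone HSP47, P3h3 at -0.74 (SE 0.17), another prolyl 3-hydroxylase, and Plod3 at -0.63 (SE 0.11), a lysyl hydroxylase. None of the 22 was called between grafts at 30, 90 or 180 days, where 1.67%, 12.5% and 2.44% of all probes were called.

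Genes that act on collagen outside the cell also changed. Of 9 genes for processing and cross-linking on the array (14 were listed), 3 fell from 7 to 30 days in BAM (median -0.53) and 0 with ASCs (median -0.20), where 4.21% and 1.4% of all probes fell. They were Bmp1, a procollagen C-proteinase, at -0.86, Pcolce, its enhancer, at -0.84 and Loxl4, a lysyl oxidase, at -1.58. Pcolce had a saturated spot on 14 arrays and Loxl4 was well above background on 28. Loxl4 was higher with ASCs at 30 days (log2 1.39, SE 0.35, adjusted p = 0.00963), where 1.2% of all probes were higher. Sparc, a collagen-binding protein, was called at 90 days but was saturated on 54 arrays.

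All 8 listed collagen-degrading enzymes were on the array, and 5 fell while 1 rose between 7 and 30 days in BAM (median -1.14), where 4.21% of all probes fell and 4.44% rose. Mmp8, neutrophil collagenase, changed by -4.76, Mmp13, an interstitial collagenase of rodents, by -2.48, Fap, a protease of activated fibroblasts, by -1.34, Mmp14, a membrane collagenase, by -1.22 and Mmp2, a gelatinase, by -1.06. Ctsk, a lysosomal collagenase, rose by 1.30 (adjusted p = 0.00975). With ASCs 2 fell, Mmp8 at -2.67 and Mmp14 at -0.68, and none rose (median -0.67), where 1.4% of all probes fell. No degrading enzyme and none of the 7 collagen receptors on the array (10 were listed) was called between grafts at 7 days, where 7.73% of all probes were, with medians of -0.30 and -0.21.

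Transcription factors that act on collagen genes were called between 30 and 90 days about as often as all probes. Of all probes, 44.7% were called over that interval in BAM and 28.1% with ASCs. Of 15 on the array (17 were listed), 4 rose and 3 fell in BAM over that interval (median 0.23), where 35.2% of all probes rose and 9.49% fell. With ASCs 1 rose and 3 fell (median -0.03), where 17.8% rose and 10.3% fell. Runx2, a factor of bone, changed by -1.84 in BAM and -1.68 with ASCs, Cebpb, a factor of inflammation, by -1.31 and -1.04, Nfkb1, a subunit of NF-kappa-B, by -0.71 and -0.71, and Sox5, a factor of cartilage, by 0.78 and 0.92. The other 3 that rose in BAM were Sox6, Sox9 and Sp7, and Sox6 was well above background on 8 arrays. From 7 to 30 days Twist1 (-1.10) and Prrx1 (-1.10) fell in BAM, and Sox9 rose (0.63) and Runx2 fell (-0.98) with ASCs. Of all probes, 8.65% were called over that interval in BAM and 8.06% with ASCs. Between grafts, Prrx1, a factor of mesenchymal cells, was lower with ASCs at 7 days (-0.71, SE 0.19, adjusted p = 0.00632), and Sox9, a factor of cartilage and of other tissues, was higher with ASCs at 180 days (0.79, SE 0.14), where 2.4% of all probes were higher. The median of the factors was -0.16 at 7 days, where 5.62% of all probes were lower, and 0.10 at 180 days. Of 5 fibril-associated and beaded-filament collagens on the array (15 were listed), Col9a2 was lower with ASCs at 7 days (-1.42, SE 0.36, adjusted p = 0.00295) and fell from 7 to 30 days in BAM, as did Col16a1 (-1.03). Col9a2 was well above background on 35 arrays. Col11a2, the 1 other fibrillar collagen on the array out of 3 listed, rose from 7 to 30 days in BAM (1.55, SE 0.38, adjusted p = 0.00187), opposite in direction to Col11a1.

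The gene most like the collagens across all 64 arrays was C1qtnf6, a secreted C1q and TNF related protein. Its levels had a Pearson r of 0.94 with the mean of the 5 members well above background on all arrays, among 5220 genes compared, and that mean includes the saturated Col1a1 probe 1, Col1a2 and Col3a1. After group means were subtracted, the gene most like the same mean was Col6a2 (0.80), saturated on 29 arrays, and C1qtnf6 was not among the first 5. Pxdn, a matrix peroxidase (r = 0.91), Ctsa, a lysosomal protease saturated on 23 arrays (0.90), Inhba, an activin subunit (0.89), and Adam19, a metalloprotease (0.88), followed C1qtnf6 before that subtraction. With the mean of Col1a1 probe 2, Col5a1 and Col5a3, a choice made after saturation was seen, C1qtnf6 again led at 0.96, and after subtraction of group means it led at 0.86. After the same subtraction the genes most like Col5a1 were Gpx7, a peroxidase of the endoplasmic reticulum (0.80), Maged2 (0.80) and Serpinh1 (0.79), and those most like Col5a3 were C1qtnf6 (0.75), Rftn1 (0.73) and Dnase1l1 (0.71). For Col1a1 probe 2 they were Cacna1i (0.72), Col16a1 (0.72) and Col15a1 (0.68). Col1a2 was most like Rplp1, Actb and Rps3a (r of 0.99 each), which were saturated on 63 or 64 arrays as Col1a2 was on 63. These arrays share slides and scaling within groups, and the correlations are descriptions.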

How the data were processed

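The authors hybridized 1 bladder per array to 1-color rat arrays and extracted them with Agilent Feature Extraction 12.0.1.1. The deposited values are processed intensities, linear and corrected for background on each array by the authors. A series value table, also deposited as intensities, served as an alternative. Log2 signals had the 75th percentile of gene spots of the array subtracted. Control and outlier spots were left out, and a probe was well above background where at least 0.5 of its spots were. A gene took its brightest probe. Group means of 8 groups were fitted over all 64 arrays with limma 3.58.1 in R 4.3.3, without a replicate block, since same-numbered arrays did not vary together. Chain differences used exact permutation in Python 3.11.15. The fit was tested on simulated data. The number of arrays limits precision. The members and lists were chosen with earlier results of these data known. Alternatives were background correction, normalization, probe choice, saturated spots, dim probes, thresholds and leaving out each array.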

Additional observations from a re-analysis of the deposited data

Results flagged for a closer look

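Dixon's test at its 95% critical value for 8 samples was applied to Col1a1 probe 2, Col5a1, Col5a3, Col2a1 and the 3 Col11a1 probes in each group. It marked 12 of 56 sets of 8 arrays, where chance marks about 1 in 20, and probes of 1 gene and genes of 1 array are not independent.

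Replicate 2 of BAM at 7 days was low in Col11a1, at -3.10 for probe 1 (next array -0.77), -3.26 for probe 2 and -6.44 for probe 3. Replicate 3 of BAM seeded with ASCs at 7 days was high, at 5.50 for Col1a1 probe 2 (next array 4.92), 0.96 for Col11a1 probe 1 and 1.19 for Col11a1 probe 2. Replicate 8 of BAM at 90 days was high in the cartilage collagens, at -0.62 for Col2a1 and -3.50 for Col11a1 probe 3. Col2a1 was also high at -3.17 on replicate 1 of BAM seeded with ASCs at 30 days, which had the highest chondrocyte marker mean of its group (-2.56), and at -3.63 on replicate 7 of BAM at 7 days. Col5a3 was low on replicate 3 of BAM seeded with ASCs at 90 days, at -1.70, and high on replicate 4 at 180 days, at 0.57.

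A difference between grafts that changed over the 4 days passed the test for Col1a1 probe 1 (adjusted p = 0.00215) and Col1a2 (adjusted p = 8.21e-05). Both probes were saturated on most arrays, so these values carry no order of the groups.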

How the results depend on the processing

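When each gene took its brightest probe, 0, 0, 2 and 0 genes were called between grafts at 7, 30, 90 and 180 days. The 2 calls at 90 days became 0 with quantile normalization, with saturated spots left out, with unsaturated probes alone or with the dimmer Col1a1 probe (chosen after seeing the data), and 1 with a separate fit of the groups or with the mean over probes. At 7 days 1 gene was called at an adjusted p below 0.05 or with the dimmer Col1a1 probe. Over time, the 6 genes called in BAM from 30 to 90 days became 3, and the 2 from 90 to 180 days became 0, under quantile normalization, without saturated spots, with unsaturated probes or with the dimmer probe, and the latter 2 also became 0 in a separate fit and 1 with the mean over probes. In BAM seeded with ASCs, 2 genes rather than 1 had an adjusted p below 0.05 from 7 to 30 days. The 2 genes whose graft difference changed over days became 0 under quantile normalization, without saturated spots or with the dimmer probe, and chain differences went from 0 to 4 with the dimmer probe. The cause of these shifts was not tested beyond the ceiling values given above.

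Leaving out each array in turn gave 0 to 1, 0 to 0, 2 to 3 and 0 to 0 calls between grafts at 7, 30, 90 and 180 days. In BAM it gave 2 to 3, 5 to 6 and 2 to 3 calls for the successive intervals, and in BAM seeded with ASCs 1 to 1, 3 to 3 and 0 to 0. It gave 2 to 4 genes for the change of the graft difference and 0 to 2 chain differences, with 1 without replicate 2 of BAM at 7 days or replicate 1 with ASCs at 30 days and 2 without replicate 8 of BAM at 90 days. The change of the graft difference reached 4 without replicate 2 of BAM at 7 days.

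For single results, 3249 of 3300 values under the alternatives kept direction and side of the threshold, 23 lost the call, 6 gained it and 22 turned sign, these last between -0.057 and 0.0078. At 90 days quantile normalization called Col1a1 probe 2 (-0.65, adjusted p = 0.0051). At 180 days Col1a1 probe 2 turned to -0.017 with normexp and -0.049 with quantile normalization, and ranged from -0.035 to 0.16 without single arrays. Col5a1 at 180 days turned to -0.044 with normexp, -0.041 with quantile normalization and -0.051 with detected probes, and ranged from -0.044 to 0.076 without single arrays, and at 30 days from -0.057 to 0.050. Col5a1 minus Col1a1 probe 2 at 180 days was 0.0078 with quantile normalization. The replicate block, which pairs arrays of the same number, changed the count of genes with a changing graft difference from 2 to 3 and no other count, and same-numbered arrays correlated above 0.1 in 9 of 32 pairs.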
